A study of Bos taurus with 40 samples.

Results

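The 36 hepatic genes described here were at least doubled, by the log2 measure below, in feed-restricted over continuously fed bulls at the end of restriction. They were chosen from the 12150 genes of the normalised table of Period 1, of which they are 0.296%. For each gene the mean of log2(normalised value + 1) over the animals of each diet was taken, and a gene was included where the mean of the restricted bulls exceeded that of the fed bulls by at least 1, provided that its mean over all 40 animals was under 1000 CPM, the usual read count scaled to the same total of reads on genes in each animal. Of 37 genes that reached this difference, 1 was left out for its read level (1872 CPM, a difference of 1.86 in Period 1 and -0.20 in Period 2). A further 7 listed identifiers were excluded beforehand, of which 0 reached the difference. The Period 1 values therefore define the set and are given as a description, without a test.

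The animals were male Holstein Friesian bulls offered a diet of 70% concentrate and 30% grass silage. RES animals had restricted feed intake in Period 1 and were then re-alimented, that is fed ad libitum, in Period 2. ADLIB animals were fed ad libitum in both periods. Liver was taken from 10 RES and 10 ADLIB animals at day 125 of Period 1 and from 10 RES and 10 ADLIB animals at day 55 of Period 2, and each library was 1 animal. The labels speak of biopsies and the methods of slaughter of different animals at each time point, so animals of the 2 periods were treated as different animals.

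The liver directs absorbed nutrients to storage or use, makes glucose and ketone bodies from stored and mobilised substrates when intake is low, and changes in size and metabolic activity with feed intake. Restriction of intake lowers insulin and alters growth hormone signalling to the liver, and transcription of many hepatic enzymes and secreted proteins responds to these hormones and to the nutrients themselves. When feed is restored, cattle may grow faster than continuously fed animals, which is known as compensatory growth.

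Each animal had between 8656866 and 15520237 reads on genes. The share of reads that were counted on a gene averaged 75.8% ± 1.79 (SD, n = 10) in RES and 78.1 ± 1.07 in ADLIB in Period 1, and 77.7 ± 1.55 and 76.6 ± 1.33 in Period 2. The part of this share in the Period 1 differences was not tested. The files carry Ensembl identifiers only and 0 of the 36 matched the reference table of gene names, so the functions of these genes, and the markers of hepatocytes and other liver cells, could not be looked up. The genes are told apart below by their rank in the Period 1 difference, from 1 (largest) to 36, and 4 identifiers are printed, namely the largest Period 1 difference, the highest Period 2 difference and the 2 lowest Period 2 differences, chosen after the values were seen. In whole liver, fewer cells of a type and less RNA per cell cannot be told apart.

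At the end of Period 1 the difference between RES and ADLIB ranged from 1.00 to 5.29 on the log2(value + 1) scale, with a median of 1.29. It was at least 2 in 6 genes and under 1.5 in 24, so most of the set lay close to the limit. The edgeR log2 fold change of Period 1, which follows mean counts, ranged from 0.68 to 4.80 and was under 1 in 4 genes. The 3 genes just inside the limit had differences of 1.01, 1.00 and 1.00, and the 3 just outside had 0.98, 0.98 and 0.97. In 6 of the 36 genes (ranks 1, 3, 11, 17, 29 and 34) every RES animal was above every ADLIB animal, against 0.321% of all genes of the Period 1 table, although this is the contrast that chose them. Ranks 3 and 11 had only 0 to 12 and 2 to 15 reads per ADLIB animal. They met the minimum of the Period 1 table (above 1 CPM in 10 or more animals) only through RES. Their separation was thus partly fixed by that minimum. In 24 genes all 10 RES animals were above the ADLIB median, in that same contrast, and the share of all genes was not computed. The separation was weakest at ranks 9, 14 and 22, where no more than 3 RES animals exceeded the highest ADLIB animal.

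As a group, the 36 genes lay close to the ADLIB level by day 55 of re-alimentation. Their percentage of all reads on genes ranged from 0.351 to 0.535 (median 0.407) in RES and from 0.108 to 0.183 (median 0.135) in ADLIB in Period 1. In Period 2 it ranged from 0.125 to 0.212 (median 0.138) in RES and from 0.124 to 0.200 (median 0.157) in ADLIB. The diets were thus fully separate in Period 1, by the choice of genes, and overlapped almost completely in Period 2, with a ratio of the mean RES to the mean ADLIB percentage of 2.96 in Period 1 and 0.950 in Period 2. The percentage mostly follows the genes with the most reads, and those at the top (ranks 30, 29 and 4) had Period 2 differences of -0.71, -0.33 and -0.19. The mean log2(value + 1) over the 36 genes gave each gene equal weight, and averaged 5.18 ± 0.209 (SD, n = 10) in RES and 3.64 ± 0.163 in ADLIB in Period 1, then 3.98 ± 0.175 and 3.86 ± 0.193 in Period 2. With equal weight RES was thus slightly above ADLIB in Period 2, and with the percentage slightly below. A RES animal had from 31 to 36 of the genes (median 35) above the ADLIB median in Period 1 and from 15 to 28 (median 18) in Period 2. Since the genes were chosen by a high Period 1 difference, a smaller difference in other animals follows in part from that choice.

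**Figure D1:**
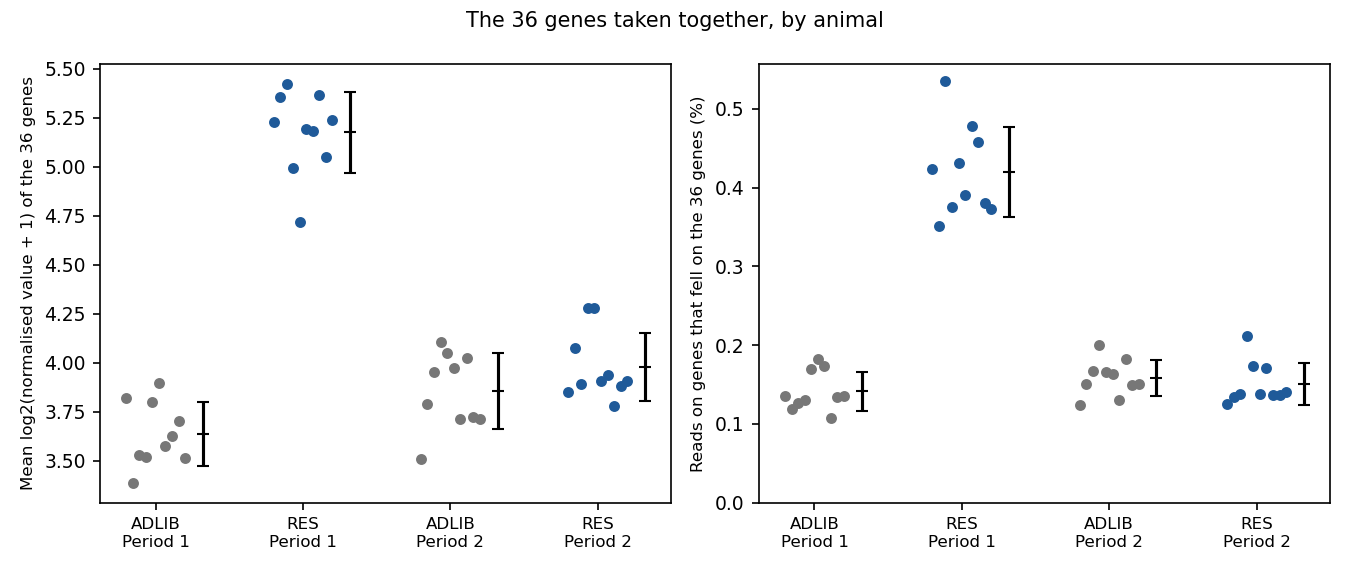
The 36 genes by animal. Left, the mean log2(normalised value + 1) over the genes; right, the percentage of reads on genes that fell on them. Each point is 1 animal (grey ADLIB, blue RES, 10 per group) and the bars are the mean ± SD. The RES animals of Period 1, which chose the genes, lay above all others, with 0.351% to 0.535% of reads, and the Period 2 groups overlapped.

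Gene by gene, the Period 2 difference between RES and ADLIB had a median of 0.02 over the 36 genes, beside 0.01 over the 12056 genes of both tables. It was above 0 in 19 genes and below 0 in 17, and 48.6% of all genes were below 0. The genes of the set nevertheless differed more in size than genes at large, with a median absolute difference of 0.26 against 0.11 over all genes. Of the 36, 18 were within 0.25 of no difference, as were 85.2% of all genes. A difference of at least 0.5 was held by 7 of the 36, against 1.14% of all genes. One of -0.5 or lower was held by 4 of the 36, against 0.912% of all genes. The animals of a group also varied more in these genes, whose SD of log2 values in Period 2 had a median of 0.59 in RES and 0.54 in ADLIB, against 0.26 and 0.25 over all genes.

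**Figure D2:**
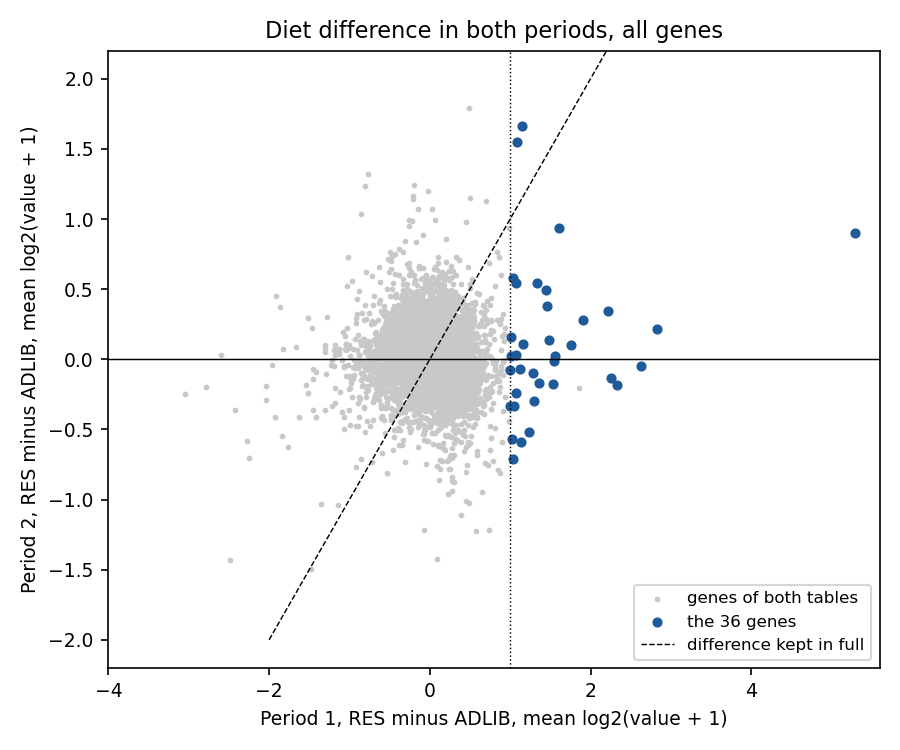
Period 2 difference (vertical) against Period 1 difference (horizontal) for the genes of both tables (grey) and the 36 genes (blue), as RES minus ADLIB mean log2(normalised value + 1). The dotted line is the limit of 1 that chose the genes, the dashed line marks a difference kept in full, and the grey point right of the limit is the gene with 1872 CPM. Most blue points lay near 0 in Period 2, and 2 lay above the dashed line.

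The part of the Period 1 difference that remained in Period 2 had a median of 1.88% and ranged from -68.8% to 145%. By this measure 17 genes were at or under the ADLIB mean in Period 2, with Period 2 differences of -0.71 to -0.01. At ranks 3, 4, 5, 11, 24 and 35 of these the sign turned with 1 Period 2 animal left out, the highest difference being 0.16. Ranks 8, 10, 14, 28 and 33 went from above 0 to below 0 in the same way. Another 11 genes kept under 25% of their difference, 3 kept from 26.2% to 40.7%, and 5 kept at least 50% (ranks 9, 22, 25, 26 and 31). The last count was 3 without any 1 of RES replicates 2, 4 and 5 or ADLIB replicate 8 of Period 2, and 3 with edgeR log2 fold changes in both periods, where ranks 9 and 26 were under 50%. The gene at 26.2% (rank 14) had an edgeR log2 fold change of -0.07 in Period 2 (95% interval -1.68 to 1.55). In 4 of the 36 genes the Period 2 difference and the edgeR log2 fold change, fitted without a read minimum, differed in sign. The 6 genes with Period 1 differences of at least 2 were all among those with less than 25% left, from -7.94% to 17.1%, and the largest Period 1 difference among the 5 that kept the most was 1.60. The percentage has the Period 1 difference as its divisor, so a large one by itself gives a low percentage. At rank 1 a Period 2 difference of 0.90 was only 17.1% of the Period 1 difference. Whether the most raised genes returned more fully cannot be read from these percentages. Spearman's rho between the differences of the 2 periods was 0.26 over the 36 genes, which share their animals within each period.

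**Figure D3:**
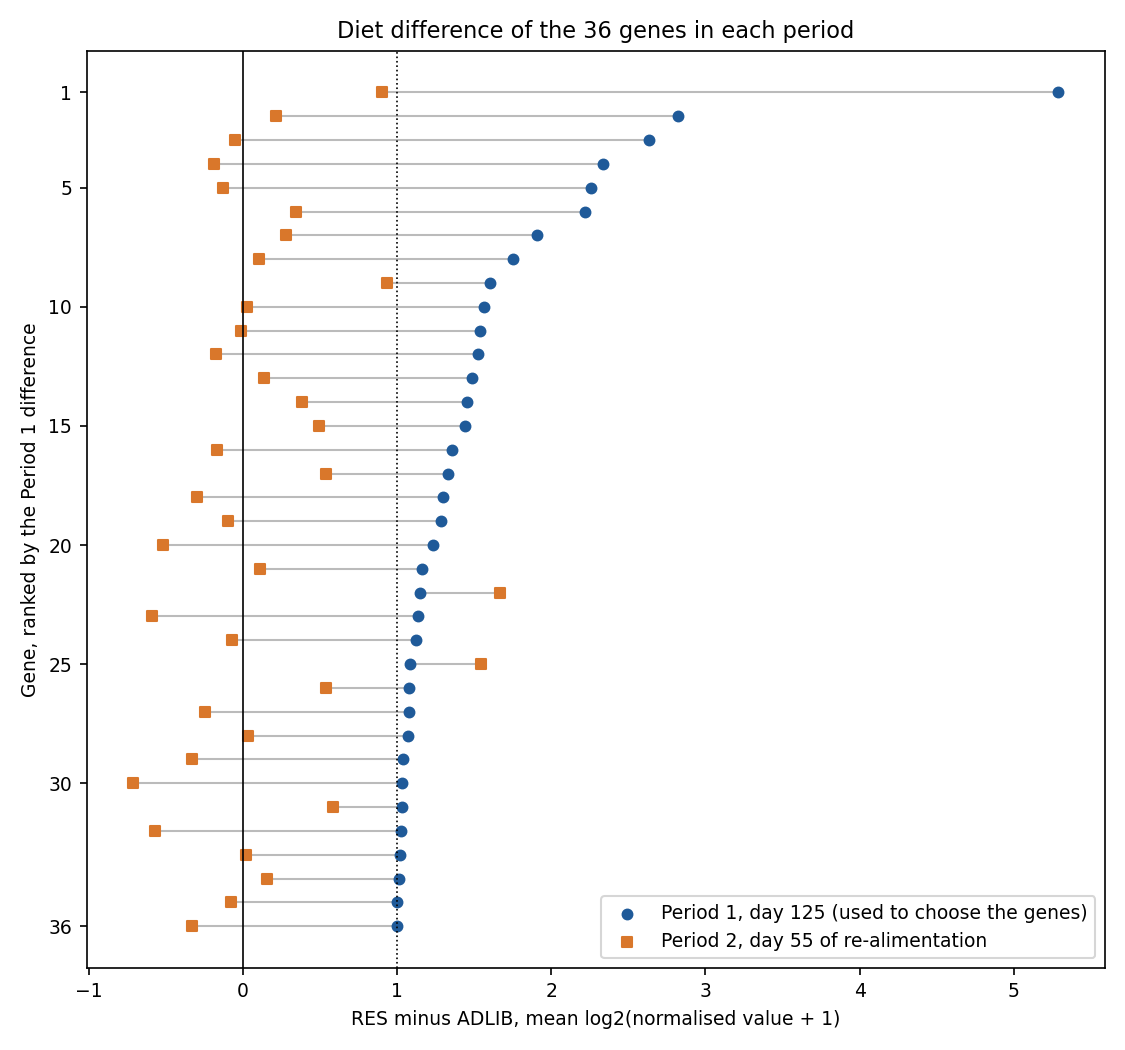
RES minus ADLIB difference in mean log2(normalised value + 1) of each of the 36 genes in Period 1 (blue circles) and Period 2 (orange squares), ordered by the Period 1 difference. The dotted line is the limit of 1 and the solid line no difference. The 6 genes at the top, from 2.22 to 5.29 in Period 1, all lay under 1 in Period 2, and ranks 22 and 25 lay above their Period 1 difference.

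In the Period 2 test, 0 of the 33 genes that reached 4 reads in each animal were called between RES and ADLIB by edgeR's quasi-likelihood test, for which the Benjamini-Hochberg FDR had to be under 0.05, with or without the fold-change minimum of the study's methods (percentage called over all 12202 genes tested, 0). The smallest FDR among them was 0.228. edgeR's exact test and DESeq2 also called 0 of the 33, while calling 0.434% and 0.426% of all genes, and limma-voom called 0. The smallest FDR among the 33 was nearer the threshold in these 2 tests, at 0.0765 with the exact test (rank 22) and 0.0836 with DESeq2 (rank 30). The exact test, fitted with tagwise dispersions, called 53 of all genes. The study, whose edgeR fit used moderated tagwise dispersions, did report genes called in Period 2, so the 0 over all genes is not its result. The study prints its FDR limit as 0.05%, which was read here as 0.05. Without gene names, the genes it reported could not be matched to the 36. Ranks 3, 11 and 24 had too few reads to be tested. At an unadjusted p under 0.05 there were 12 of 33 genes (36.4%), against 12.8% of all genes. Of the 12, 7 were higher in RES, against 7.12% of all genes tested, and 5 were lower, against 5.70%. None of the 12 passed the adjustment. The 32 genes held in the Period 2 table had 0 with every RES animal above or below every ADLIB animal, as had 0 of all genes.

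A missed threshold does not show a full return, and the intervals give how large a remaining difference the data allow. The 95% interval of the edgeR log2 fold change lay under 1, that is under a doubling, in 22 of the 33 genes tested (66.7%), compared with 96.7% of all genes. It lay wholly within a doubling in either direction in 14 of the 33, against 94.9% of all genes. Its upper bound was under 0.5 in 14 of the 33, against 78.4% of all genes. In the other 11 genes the upper bound was between 1.15 and 2.55, so that a kept doubling was not detectable as absent with 10 animals per diet. The interval was above 0 in 7 genes, below 0 in 5 and included 0 in 21, with a median half-width of 0.60.

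**Figure D4:**
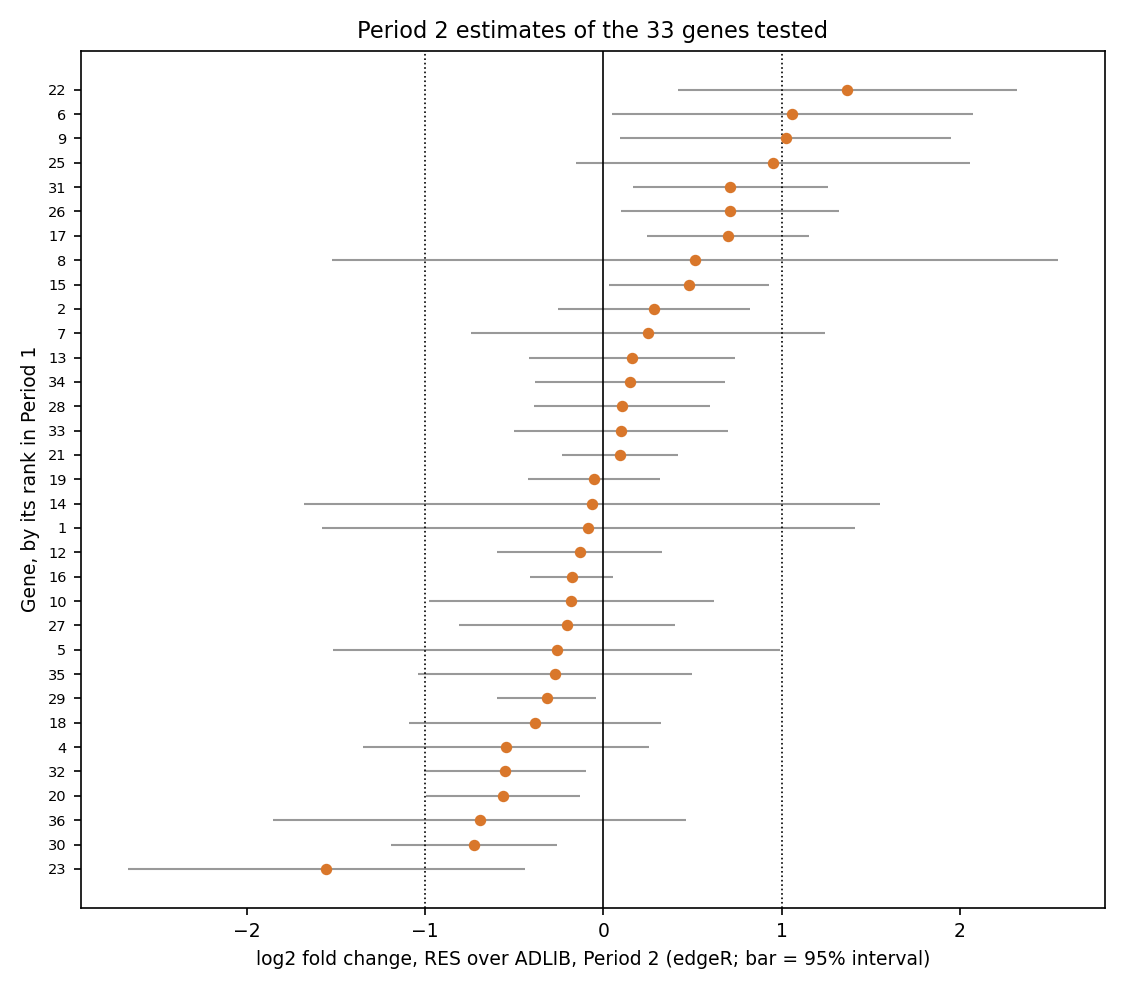
edgeR log2 fold change of RES over ADLIB in Period 2 (points) with its unadjusted 95% interval (bars) for the 33 genes tested, each labelled by its Period 1 rank. Dotted lines mark a doubling and a halving. The estimates ran from -1.56 at rank 23 to 1.37 at rank 22, and 21 intervals included 0.

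The largest Period 1 difference, 5.29, was that of ENSBTAG00000005596. Its normalised value ranged from 1.51 to 41.2 (median 4.69) in ADLIB and from 105 to 672 (median 288) in RES in Period 1. In Period 2 it ranged from 2.60 to 208 (median 9.28) in ADLIB and from 6.86 to 83.5 (median 36.4) in RES. Every RES animal was above every ADLIB animal in Period 1, whereas in Period 2 9 of 10 RES animals exceeded the ADLIB median and 0 exceeded the highest ADLIB animal. The Period 2 difference was 0.90 on the log2(value + 1) scale, but the edgeR log2 fold change, which follows mean counts, was -0.09 (95% interval -1.58 to 1.41, FDR = 0.973). ADLIB replicate 4 held the value of 208, and without it the log2 fold change was 0.68 (FDR = 0.766). Without RES replicate 4 it was -0.27.

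In the next 5 genes by Period 1 difference, from 0 to 2 RES animals of Period 2 lay above the highest ADLIB animal. At rank 2 the value ranged from 7.37 to 81.2 (median 46.9) in RES and from 2.78 to 8.23 (median 4.47) in ADLIB in Period 1, and from 2.08 to 12.5 (median 5.87) and 2.82 to 9.08 (median 5.07) in Period 2. All but 1 RES animal had exceeded the highest ADLIB animal, and 2 did so after re-alimentation, with a log2 fold change of 0.28 (95% interval -0.26 to 0.82). Rank 3 was nearly silent outside restriction, with a median of 8.60 in RES against 0.449 in ADLIB in Period 1, and 0.547 against 0.610 in Period 2. At rank 4 the median of RES was 451 in Period 1 and 97.2 in Period 2, beside ADLIB medians of 94.0 and 101. At rank 5 it was 51.4 and then 20.9, beside 10.5 and 19.1 in ADLIB, whose highest animal had 161 in Period 2. Both groups overlapped at ranks 3, 4 and 5 in Period 2, and the differences there were -0.05, -0.19 and -0.13. Without single animals they ran from -0.13 to 0.09, from -0.34 to 0.01 and from -0.37 to 0.16.

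At rank 6 the remaining difference rested on 1 animal. Its Period 2 values had a median of 2.13 in RES and 2.00 in ADLIB, with 5 of 10 RES animals above the ADLIB median and a highest RES value of 19.5. The edgeR log2 fold change was 1.06 (95% interval 0.05 to 2.07, unadjusted p = 0.0410, FDR = 0.374). Without RES replicate 4 it was 0.22.

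Among the 5 genes that kept at least 50%, ENSBTAG00000001292 (rank 22) had the highest Period 2 difference. Its value ranged from 0.717 to 33.3 (median 9.00) in ADLIB and from 5.64 to 34.4 (median 18.9) in RES in Period 1, and from 0.866 to 33.2 (median 5.69) and 11.3 to 46.1 (median 23.1) in Period 2. All 10 RES animals of Period 2 were above the ADLIB median and 3 were above the highest ADLIB animal. The difference was 1.15 in Period 1 and 1.67 in Period 2, where the log2 fold change was 1.37 (95% interval 0.42 to 2.32, FDR = 0.262) and stayed between 1.23 and 1.81 without any single animal. Its Period 1 log2 fold change from edgeR was under 1, as at ranks 14, 30 and 32.

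Rank 25 had a like course. Its value ranged from 2.08 to 17.3 (median 5.86) in ADLIB and from 2.44 to 24.0 (median 15.0) in RES in Period 1, and from 0.576 to 20.8 (median 8.63) and 11.1 to 29.3 (median 16.5) in Period 2. In Period 2 all 10 RES animals were above the ADLIB median, and the difference was 1.55 against 1.09 in Period 1. The log2 fold change of 0.95 had an interval that included 0 (95% interval -0.16 to 2.06, FDR = 0.456). In both genes the ADLIB animals of Period 2 spread widely, with SDs of 1.23 and 1.68 on the log2 scale against 0.60 and 0.38 in RES.

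The other 3 genes of this class kept from 50.2% to 58.3%. At rank 9 a few animals were far above the rest, since RES in Period 1 had a median of 48.7 and a highest value of 936, and RES in Period 2 a median of 74.8 and a highest value of 373, beside ADLIB medians of 23.9 and 59.0. The Period 2 log2 fold change was 1.02 (95% interval 0.10 to 1.95, FDR = 0.354), and 0.66 without RES replicate 4. Ranks 26 and 31 had log2 fold changes of 0.71 and 0.71 (FDR = 0.332 and 0.289). Their RES medians were 4.88 and 16.0 in Period 1 and 2.64 and 9.54 in Period 2, so in both genes the RES median of Period 2 was lower than in Period 1 and above the ADLIB medians of 1.95 and 5.38.

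Rank 17 had the smallest unadjusted p of those higher in RES. Its value ranged from 4.76 to 10.9 (median 8.26) in RES and from 1.20 to 3.87 (median 2.71) in ADLIB in Period 1, and from 3.11 to 10.4 (median 5.34) and 2.02 to 5.17 (median 3.08) in Period 2. All 10 RES animals were above the ADLIB median in both periods, and 6 exceeded the highest ADLIB animal in Period 2. It kept 40.7% of its difference, with a log2 fold change of 0.70 (95% interval 0.24 to 1.15, unadjusted p = 0.00414, FDR = 0.228).

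At the other end, 4 genes had Period 2 differences of -0.5 or lower (ranks 20, 23, 30 and 32), and the lowest was that of ENSBTAG00000043570 (rank 30). Its value ranged from 131 to 428 (median 227) in ADLIB and from 344 to 755 (median 506) in RES in Period 1, and from 77.2 to 333 (median 236) and 71.3 to 244 (median 125) in Period 2. All 10 RES animals were above the ADLIB median in Period 1 and 1 was in Period 2, although the ranges overlapped in both. The difference went from 1.04 to -0.71, and the Period 2 log2 fold change was -0.73 (95% interval -1.19 to -0.26, unadjusted p = 0.00371, FDR = 0.228).

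ENSBTAG00000039035 (rank 23) followed, at a low level. Its value ranged from 0.179 to 2.54 (median 0.920) in ADLIB and from 1.65 to 13.4 (median 3.02) in RES in Period 1, and from 0.329 to 11.0 (median 1.22) and 0.403 to 1.47 (median 0.781) in Period 2. The RES animals of Period 2 lay in the lower part of a wide ADLIB range. The log2 fold change was -1.56 (95% interval -2.67 to -0.44, FDR = 0.272), and -0.94 without ADLIB replicate 7, which had the value of 11.0.

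**Figure D5:**
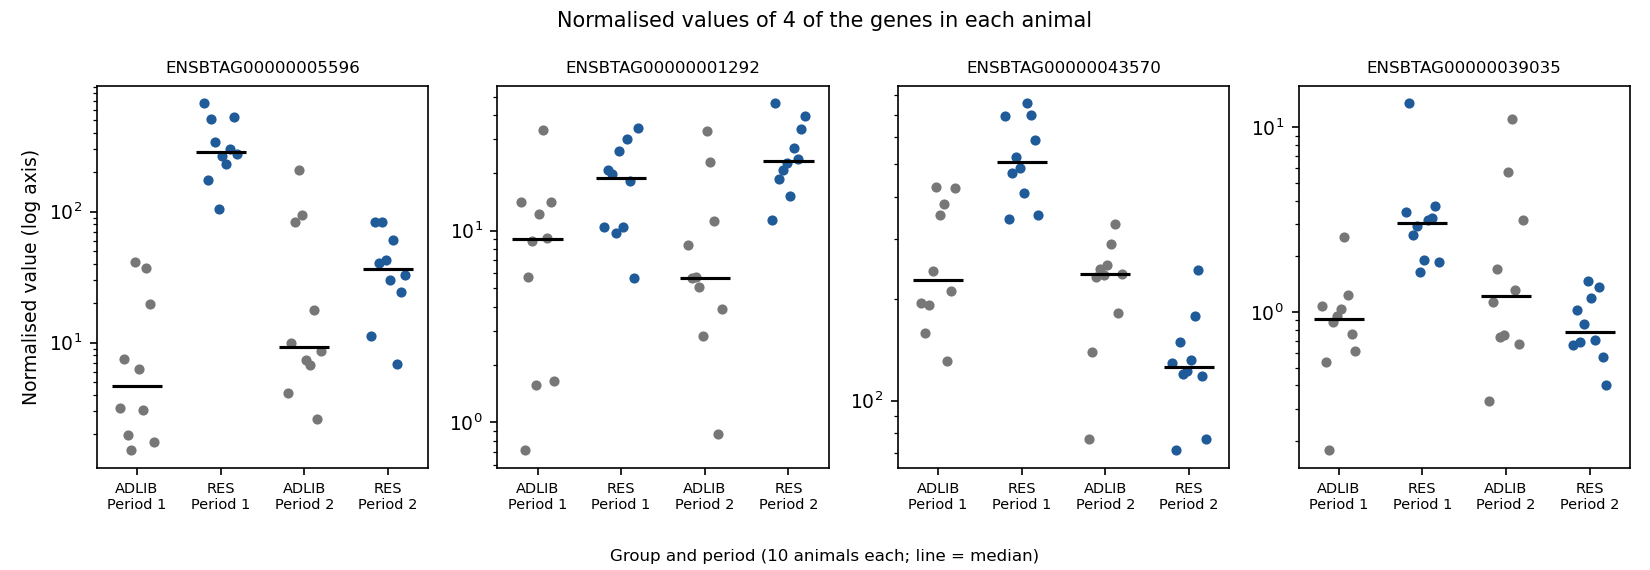
Normalised value (log axes, which differ between panels) of the 4 genes printed by identifier, in each animal of the 4 groups (grey ADLIB, blue RES, bar at the median). ENSBTAG00000005596 had a RES median of 288 in Period 1 and 36.4 in Period 2, ENSBTAG00000001292 had 18.9 and 23.1, and in ENSBTAG00000043570 and ENSBTAG00000039035 the RES median of Period 2 was under that of ADLIB.

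Ranks 20 and 32 were lower in RES in Period 2 by log2 fold changes of -0.56 and -0.55 (FDR = 0.288 and 0.311). At rank 20 all 10 RES animals exceeded the ADLIB median in Period 1 and 0 did so in Period 2, where RES ranged from 27.9 to 69.0 (median 50.1) and ADLIB from 46.7 to 172 (median 69.3). Without ADLIB replicate 8, which held the 172, the log2 fold change was -0.35. Rank 29 varied little among the animals of a group, with SDs of 0.17 to 0.35 on the log2 scale. It ranged from 369 to 560 (median 435) in RES and from 150 to 278 (median 217) in ADLIB in Period 1 without overlap, and from 126 to 273 (median 202) and 183 to 329 (median 240) in Period 2, with a log2 fold change of -0.32 (95% interval -0.59 to -0.04, FDR = 0.333).

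The levels of each diet in the 2 periods were set side by side without a test, from tables that the authors normalised separately. The genes were chosen for high RES and low ADLIB values in Period 1, so a lower RES and a higher ADLIB value in Period 2 follow in part from that choice, and which diet group moved cannot be read from them. RES was lower in Period 2 than in Period 1 in 33 of the 36 genes, by a median of -1.22 on the log2(value + 1) scale, against 0.12 over all genes, and 22 genes were lower by at least 1 on that scale. ADLIB was higher in Period 2 in 26 genes and lower in 10, with a median of 0.22 against 0.08 over all genes, and 6 genes were higher by at least 0.5. In 13 genes the RES median of Period 2 was under the ADLIB median of Period 1. The shares of all genes that go with these counts were not computed.

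As a set of like kind, 71 genes had a Period 1 difference of -1 or lower. Their median Period 2 difference was -0.05, 4 of them kept at least 50% of their Period 1 difference, and the median part kept was 4.77%, beside 1.88% and 5 of 36 in the genes doubled or more. The difference between these sets was not tested.

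The mean read level over 40 animals ranged from 1.37 to 292 CPM (median 19.0) and was under 5 CPM in 8 genes. A higher level did not always give a narrower estimate, since the standard error of the Period 2 log2 fold change was 0.72 at rank 1 (110 CPM) and 0.22 at rank 17 (5.06 CPM). Because 1 was added before the logarithm, the difference understates the change of low genes, and a smaller or larger constant would have chosen other genes. With 0.25 added 60 genes, and with 4 added 22 genes, reached a difference of 1.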

How the data were processed

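Hepatic RNA of 40 bulls was sequenced. The authors aligned reads with TopHat to UMD 3.1, counted unique alignments on Ensembl genes with HTSeq, and the deposited read counts (24616 genes) are not normalised. The submitters' processing notes also list CASAVA 1.4. The authors also deposited a normalised signal per gene, which is the read count times a constant per animal, for genes above 1 CPM in 10 or more of that period's animals. For 4 genes absent from the Period 2 table the same constants were applied to the counts. Animals were grouped by the sample titles. The genes and lists were chosen with earlier results of these data known.

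Period 2 counts were tested in R 4.3.3 with edgeR 4.0.16 (TMM, robust quasi-likelihood test, a minimum of 4 reads in each animal, Benjamini-Hochberg adjustment over all genes tested), first tested on simulated data. DESeq2 1.42.0, edgeR's exact test, limma 3.58.1, other scalings, filters, pseudocounts, thresholds, blocks, covariates and fits without each animal were alternatives. Normalised values were compared on the log2(value + 1) scale. Intervals are unadjusted. The lists of liver pathways, cell type markers and promoter motifs could not be applied without gene names, and the rule then allowed at most 2 rising and 2 falling identifiers. The 92 spike-in features held 0 reads. No 2 animals of a group had the same counts within sampling noise (lowest chi-square per degree of freedom 17.8).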

Additional observations from a re-analysis of the deposited data

Results flagged for a closer look

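Among 64 groups of 10 animals examined in 12 of the genes and 4 library measures, 14 had a highest animal far from the next. The cut-off used (Dixon's ratio of this gap to the range) would flag about 3.2 (1 in 20) if values were normally distributed. The gene values were not log-transformed, and most of the 12 genes were chosen for extreme Period 2 differences. The value of 3.2 is therefore not a chance level for them. At rank 1 ADLIB replicate 4 of Period 2 had a normalised value of 208 (next 93.5), and at rank 2 ADLIB replicate 8 of Period 1 had 8.23 (next 5.15). At rank 9 RES replicate 5 of Period 1 had 936 (next 356) and RES replicate 4 of Period 2 had 373 (next 203). At rank 17 RES replicate 2 of Period 2 had 10.4 (next 6.86). ADLIB replicate 7 of Period 1 was highest in 3 genes, with 173 at rank 20 (next 95.2), 33.3 at rank 22 (next 14.1) and 2.54 at rank 23 (next 1.24). At rank 20 ADLIB replicate 8 of Period 2 had 172 (next 81.1). At rank 23 RES replicate 2 of Period 1 had 13.4 (next 3.76) and ADLIB replicate 7 of Period 2 had 11.0 (next 5.70). At rank 29 RES replicate 10 of Period 1 had 560 (next 457), and at rank 32 RES replicate 8 of Period 2 had 222 (next 126). The reads on genes were highest in ADLIB replicate 5 of Period 2, at 15520237 (next 12133068).

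In 2 genes all 10 RES animals were above the ADLIB mean in Period 1 and all 10 below it in Period 2. At rank 20 the difference was 1.23 in Period 1 and -0.52 in Period 2, and at rank 23 it was 1.13 and -0.59. At rank 23 the ADLIB mean of Period 2 included values of 11.0 and 5.70, and RES values of 1.47 and 1.37 were above the ADLIB median. The share of all genes with this pattern was not computed. The difference between the periods was not tested, and the Period 1 side chose the genes.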

How the results depend on the processing

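The number of genes doubled or more moved from 36 to 60 with a pseudocount of 0.25, to 22 with 4 and to 47 with scaling by total reads. The median Period 2 difference of 0.02 was -0.07 with edgeR log2 fold changes, and the genes keeping at least 50% moved from 5 to 3 with those fold changes in both periods. The cause was not tested. Without single animals, the set held from 31 to 41 genes (28 to 35 of the 36 among them), the median Period 2 difference lay between -0.06 and 0.10, and the genes keeping at least 50% numbered from 3 to 6, with 3 without RES replicate 2, 4 or 5 or ADLIB replicate 8 of Period 2. The genes called in Period 2 stayed at 0, those at an unadjusted p under 0.05 at 9 to 13, and those with an interval under a doubling at 21 to 23. Same-numbered animals of Period 2 had a mean correlation of -0.00475 in their deviations from the group means, with 4 of 10 pairs over 0.1, so the numbers were not taken as a pairing. In a fit blocked by replicate number, 0 of the genes were called, 11 had an unadjusted p under 0.05, against 10.3% of all genes, and 22 had an interval under a doubling. A covariate for the percentage of reads on genes left 9 genes at an unadjusted p under 0.05, against 15.0% of all genes, and the number in the library names as a block left 8, against 10.0%. Without either, these were 12 genes and 12.8%. Where animals of a group varied widely, the data limit what can be said of a gene's return.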

Other observations

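Of the 36 genes, 4 had identifiers within 29 consecutive numbers of each other, which was noticed after the values were seen. Their Period 1 differences ranged from 1.03 to 2.26 and their Period 2 differences from -0.71 to -0.13, so that all 4 were under the ADLIB mean after re-alimentation. In 1 of them (rank 5) the sign turned on a single animal. The difference of -0.13 was 0.16 without ADLIB replicate 2 and -0.37 without RES replicate 4. Its RES median of 20.9 was above the ADLIB median of 19.1. Whether these identifiers lie together in the genome, or share reads, was not tested.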
